A study of Mus musculus with 4 samples.

Results

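The genes described here encode 34 proteins that make ribosomes or transcribe the ribosomal DNA, namely the cores of the small nucleolar ribonucleoproteins (snoRNPs), abundant nucleolar proteins, assembly factors of the small and the large ribosomal subunit, and RNA polymerase I with its factors. They were chosen by name, as rows of the count table whose mouse Ensembl identifier belongs to one of the listed symbols, and all 34 were found among 47729 gene rows. All 34 also passed the filter on low counts, which kept 13732 genes. CD4 T cells of C57BL/6 mice, labelled as spleen cells, were turned into induced regulatory T cells (iTreg cells) in vitro and cultured for 4 days with 50 µM FeSO4, a soluble iron salt, or with PBS, the group called Mock. The medium of both groups held 5 ng/mL TGF-β, 100 U/mL IL-2, and antibodies against IL-4 and IFN-γ at 5 µg/mL each, and the study's methods add anti-CD3 and anti-CD28 stimulation. Each group had 2 RNA-seq libraries. The comparison asks which of these transcripts differed when iTreg cells were given extra iron. The labels name no deletion, transgene or further treatment in either group.

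Ribosomes are built in the nucleolus, where RNA polymerase I copies the ribosomal DNA into one long precursor RNA. The factors UBF and TIF-IA load the polymerase onto the gene, snoRNPs modify the precursor at chosen bases, and separate groups of assembly factors fold and cut it into the small and the large subunit. T cells enlarge their nucleoli and make many ribosomes after antigen receptor stimulation, and MYC is a known activator of many of these genes. Reads were counted per gene, so the values below are levels of the mRNAs of these factors and say nothing of ribosomal RNA or of the number of ribosomes.

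The libraries held 35183187 to 40859178 reads in gene rows. All 6 markers of CD4 T and Treg cells had reads in every library, with a summed level of 3424 and 3683 CPM (reads scaled to a common library size) in the Mock libraries and 3494 and 3741 CPM in the FeSO4 libraries. That sum hides opposite changes of single markers. Foxp3, the defining transcription factor of Treg cells, was at 586 and 693 CPM under Mock against 375 and 471 CPM under FeSO4, a log2 fold change of -0.59 ± 0.09 (SE). Cd3g, a chain of the T cell receptor complex, was at 368 and 349 CPM under Mock against 505 and 512 CPM under FeSO4, a log2 fold change of 0.50 ± 0.06 (SE). Both changes, which passed the test in edgeR, were larger than that of any of the 34 members. The CD8 T cell markers summed to 9.03 to 11.02 CPM, the B cell markers to 2.38 to 3.37 CPM, and both markers of NK cells were at 0. Myeloid markers summed to 6.23 CPM in Mock replicate 1 and to 1.84 to 2.49 CPM in the other libraries, with 164 reads of Lyz2 in that library, 8 in the other Mock library and none under FeSO4. The 2 erythroid markers found summed to 24.9 and 19.7 CPM under Mock against 37.6 and 32.6 CPM under FeSO4, nearly all of it Hba-a1, while Alas2 stayed between 0.117 and 0.394 CPM. The part of these markers in the results below was not tested. In such bulk libraries, fewer cells of a type and less RNA per cell cannot be told apart.

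Of the 34 members, 29 did not pass the test and 5 were higher in FeSO4. With edgeR's quasi-likelihood test and an adjusted p under 0.05 over all genes tested, 5 of the 34 members were called higher in FeSO4, where 10.9% of all genes tested were called higher. These were Ncl, Npm1, Nop58, Nhp2 and Polr1c. None of the 34 was called lower, where 9.17% of all genes were, and no member had an unadjusted p under 0.05 in that direction, nor did DESeq2 or limma-voom call any. A share of 14.7% called higher is close to the background, and among the 6203 genes within the members' range of mean CPM the share was 16.4%. The median log2 fold change of the members was 0.10, beside -0.00052 for all genes and 0.02 for the genes in that range. The fitted change was above 0 for 22 members and below 0 for 12.

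The changes of the members were small. At an unadjusted p under 0.05 together with a log2 change of at least 0.5, edgeR called 0 of the 34 members in either direction, while 4.67% of all genes passed that threshold as higher and 5.73% as lower. An unadjusted p under 0.05 alone was met by 9 members, all of them higher, where 17.1% of all genes and 24.2% of the genes in the members' range of mean CPM met it as higher and 15.2% of all genes as lower. The 9 of 34 are thus close to the share among genes of like level. Both FeSO4 libraries lay above both Mock libraries for 18 members. That ordering was shown by 30.1% of all genes and by 2288 of the 6203 genes in the members' range of mean CPM. Both FeSO4 libraries lay below for 2 members, against 29.4% of all genes and 1832 of those 6203 genes. The groups overlapped for the other 14 members.

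**Figure D1:**
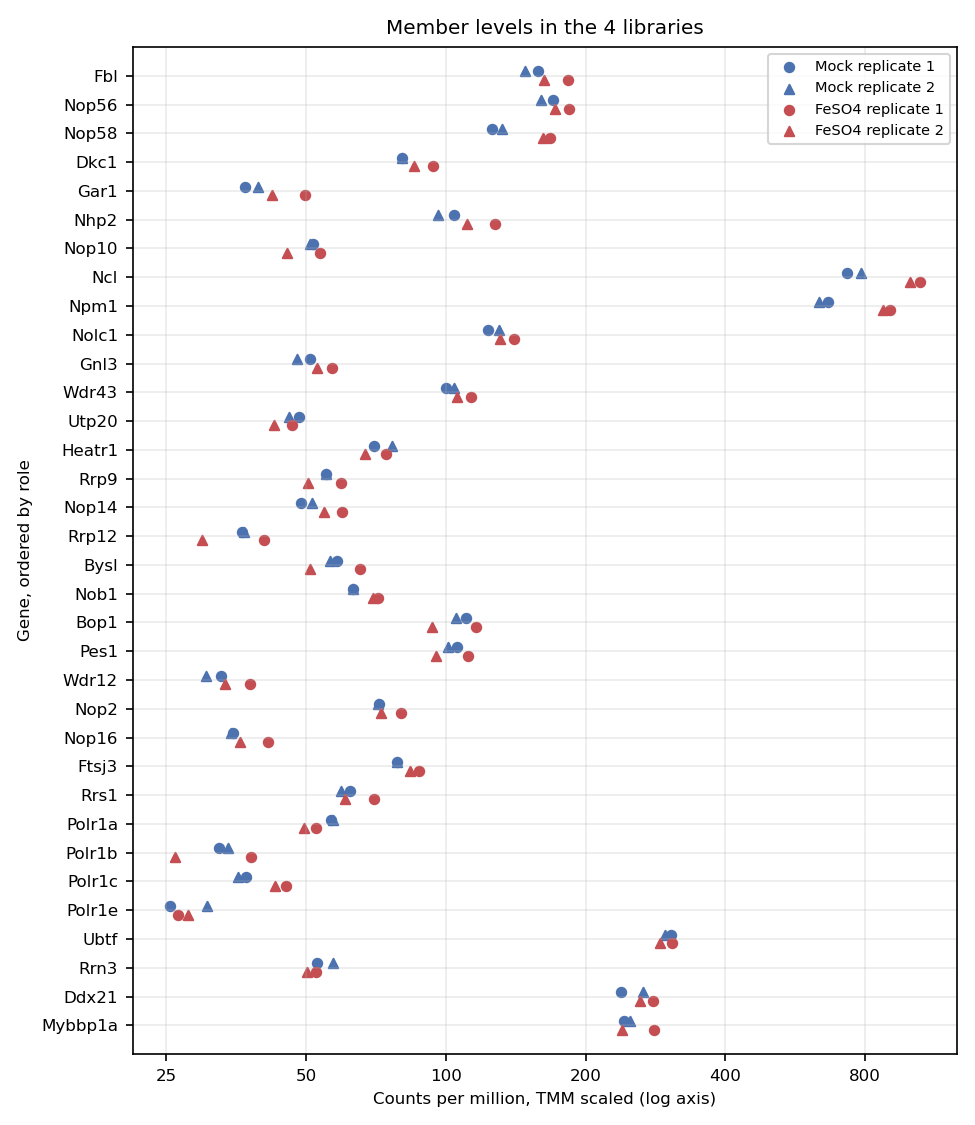
Level of each of the 34 genes in CPM after TMM scaling (horizontal log axis) in the 2 Mock libraries (blue) and the 2 FeSO4 libraries (red), with circles for replicate 1 and triangles for replicate 2. The FeSO4 points of Ncl, Npm1 and Nop58 are clear of the Mock points, and the points of most other genes lie close together.

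The start-site regions of the members that rose are shown first, because the later count of motifs rests on such windows. The sequences are those of RefSeq on GRCm38.p6, where 29 of the 34 members had an entry and Npm1, Bop1, Rrs1, Fbl and Rrp12 had none. Each run gives the 100 bases before the annotated start, 5′ to 3′ on the gene's strand, and capitals mark CGGAAGT, the core recognised by ETS family factors. Ncl lies on the minus strand at chr1:86359456-86359555, Nop58 on the plus strand at chr1:59684906-59685005, Nhp2 on the plus strand at chr11:51619673-51619772 and Polr1c on the minus strand at chr17:46248046-46248145.
Ncl: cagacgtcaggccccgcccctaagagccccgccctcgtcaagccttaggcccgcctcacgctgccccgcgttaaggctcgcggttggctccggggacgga
Nop58: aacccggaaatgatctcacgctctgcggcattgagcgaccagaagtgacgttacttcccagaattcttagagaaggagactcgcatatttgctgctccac
Nhp2: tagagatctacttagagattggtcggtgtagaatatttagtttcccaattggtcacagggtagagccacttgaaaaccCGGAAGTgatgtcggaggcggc
Polr1c: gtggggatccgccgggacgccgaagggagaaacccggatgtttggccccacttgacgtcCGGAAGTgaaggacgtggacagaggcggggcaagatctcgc

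G and C made up 72% of the Ncl window and 47% of the Nhp2 window, so these start regions differ widely in composition. The ETS core stood 22 bases before the start of Nhp2 and 41 bases before that of Polr1c, and it was not in the windows of Ncl and Nop58.

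Of the 4 abundant nucleolar proteins, 2 were called higher, and these 2 had the largest changes of the 34 members. Npm1 encodes nucleophosmin, a histone and ribosomal protein chaperone that fills the granular part of the nucleolus. Its level was 665 and 636 CPM in the Mock libraries and 905 and 872 CPM in the FeSO4 libraries. The groups did not overlap, and the Mock mean of 651 ± 19.9 CPM compared with an FeSO4 mean of 889 ± 23.2 CPM (SD over 2 libraries). The log2 fold change was 0.45 ± 0.06 (SE) with a 95% interval of 0.33 to 0.57, and edgeR's adjusted p was 5.4e-05.

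Ncl encodes nucleolin, an RNA-binding protein of the nucleolus that takes part in transcription of the ribosomal DNA and the first steps of precursor processing. It was at 732 and 784 CPM under Mock against 1048 and 997 CPM under FeSO4. The group means were 758 ± 36.6 and 1023 ± 35.6 CPM (SD over 2 libraries), again without overlap. Its log2 fold change was 0.43 ± 0.06 (SE), with a 95% interval of 0.30 to 0.56 and an adjusted p of 0.000104 in edgeR.

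The other two genes of this group moved less. Nolc1, a nucleolar phosphoprotein that binds snoRNPs, was at 123 and 130 CPM under Mock against 140 and 131 CPM under FeSO4. Gnl3, the GTPase nucleostemin, was at 51.0 and 47.8 CPM under Mock against 57.0 and 52.7 CPM under FeSO4. Neither passed the test, with log2 fold changes of 0.10 ± 0.07 and 0.15 ± 0.08 (SE).

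Summed over the 34 members, the Mock libraries held 4263 and 4300 CPM and the FeSO4 libraries 5167 and 4766 CPM. Ncl and Npm1 together made up 73.4% of the rise between the group means. The other 32 members summed to 2867 and 2881 CPM in Mock, to 3215 CPM in FeSO4 replicate 1 and to 2897 CPM in FeSO4 replicate 2. On this TMM scale FeSO4 replicate 2 was little above the Mock libraries for these 32 genes, but as a share of the reads in gene rows it was below both, at 0.284% against 0.293 and 0.295%, with FeSO4 replicate 1 at 0.313%. On those shares Ncl and Npm1 made up 89.9% of the rise.

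The box C/D snoRNP core sets 2′-O-methyl groups on the precursor, with fibrillarin, encoded by Fbl, as its methyltransferase and Nop56 and Nop58 as its scaffold. For each of the 3 genes both FeSO4 libraries were above both Mock libraries, and 1 of the 3 passed the test. Nop58 was at 126 and 132 CPM under Mock against 168 and 162 CPM under FeSO4. Its log2 fold change was 0.35 ± 0.07 (SE), with a 95% interval of 0.21 to 0.49 and an adjusted p of 0.00128 in edgeR. Fbl was at 158 and 148 CPM under Mock against 184 and 163 CPM under FeSO4, a log2 fold change of 0.18 ± 0.07 (SE) with an adjusted p of 0.0988 in edgeR, and of 0.0314 with the replicate number as a block. The log2 fold change of Fbl was 0.09 (adjusted p 0.617 in edgeR) without FeSO4 replicate 1 and 0.26 (0.043) without FeSO4 replicate 2. Nop56 was at 170 and 160 CPM under Mock against 184 and 172 CPM under FeSO4, a log2 fold change of 0.11 ± 0.07 (SE). The lower FeSO4 library of Fbl and of Nop56 stood only just above the higher Mock library.

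The H/ACA snoRNP core turns uridines of the precursor into pseudouridine through dyskerin, the product of Dkc1, and it also binds telomerase RNA. Of its 4 genes 1 was called higher. Nhp2, an RNA-binding subunit, was at 104 and 96.3 CPM under Mock against 128 and 111 CPM under FeSO4. The groups did not overlap, and its log2 fold change was 0.25 ± 0.08 (SE) with an adjusted p of 0.0326 in edgeR. Its log2 fold change was 0.15 (adjusted p 0.379 in edgeR) when FeSO4 replicate 1 was left out and 0.35 when FeSO4 replicate 2 was, and the adjusted p without Mock replicate 2 was 0.158.

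Gar1, which lets the finished RNA leave the enzyme, had the largest fitted change of that group but did not pass the test. It was at 37.0 and 39.4 CPM under Mock against 49.8 and 42.1 CPM under FeSO4, a log2 fold change of 0.26 ± 0.10 (SE) with an adjusted p of 0.0588 in edgeR, and of 0.0346 with the replicate number as a block. The log2 fold change of Gar1 was 0.15 (adjusted p 0.509 in edgeR) without FeSO4 replicate 1 and 0.38 (0.0192) without FeSO4 replicate 2. Dkc1 was at 80.5 CPM in both Mock libraries against 93.9 and 85.4 CPM under FeSO4, a log2 fold change of 0.15 ± 0.07 (SE). Nop10, the smallest subunit, was at 51.7 and 51.0 CPM under Mock against 53.5 and 45.5 CPM under FeSO4, so its FeSO4 libraries fell on either side of the Mock libraries. The subunits of this complex therefore had log2 fold changes between -0.06 and 0.26, and the difference between subunits was not tested.

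None of the 8 small subunit assembly genes passed the test in edgeR, DESeq2 or limma-voom, and 2 of them had an unadjusted p under 0.05, near the 24.2% of genes in the same range of levels. Their log2 fold changes ran from -0.08 to 0.19 with a median of 0.01. Nop14, a factor of the early precursor particle, was at 48.9 and 51.5 CPM under Mock against 59.8 and 54.6 CPM under FeSO4, with an adjusted p of 0.125 in edgeR. Nob1, the endonuclease that makes the last cut of the small subunit RNA, was at 63.0 CPM in both Mock libraries against 71.4 and 69.5 CPM under FeSO4, with an adjusted p of 0.147 in edgeR. Wdr43, which binds the nascent precursor at the start of assembly, was the third gene without overlap, at 100 and 104 CPM under Mock against 113 and 106 CPM under FeSO4.

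The other 5 genes of the small subunit group overlapped between groups. Utp20 and Heatr1, large helical repeat proteins of the processome, had log2 fold changes of -0.08 ± 0.09 and -0.05 ± 0.08 (SE). Rrp9, a U3 snoRNP protein, was at 55.2 and 55.1 CPM under Mock against 59.6 and 50.6 CPM under FeSO4. Bysl, a late-acting assembly factor, was at 58.4 and 56.2 CPM under Mock against 65.2 and 51.1 CPM under FeSO4. Rrp12, an export factor, was at 36.4 and 36.7 CPM under Mock against 40.5 and 29.9 CPM under FeSO4. In Rrp9, Bysl and Rrp12 alike, FeSO4 replicate 1 was the highest and FeSO4 replicate 2 the lowest of the 4 libraries.

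None of the 7 large subunit assembly genes passed the test either, and none had an unadjusted p under 0.05. Bop1, Pes1 and Wdr12 encode one complex that is needed for processing of the large subunit RNA. Bop1 was at 111 and 105 CPM under Mock against 116 and 93.6 CPM under FeSO4, and Pes1 at 106 and 101 CPM under Mock against 112 and 95.04 CPM under FeSO4. Wdr12 was at 32.9 and 30.5 CPM under Mock against 37.9 and 33.4 CPM under FeSO4. The 95% intervals of their log2 fold changes were -0.23 to 0.14, -0.17 to 0.17 and -0.04 to 0.38.

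Nop2, an RNA methyltransferase of the large subunit, was at 71.7 and 71.5 CPM under Mock against 80.0 and 72.5 CPM under FeSO4. Nop16 was at 34.9 and 34.5 CPM under Mock against 41.4 and 36.0 CPM under FeSO4, and the methyltransferase gene Ftsj3 was at 78.6 CPM in both Mock libraries against 87.7 and 83.8 CPM under FeSO4. Rrs1, which helps bring in the 5S RNA, was at 62.2 and 59.6 CPM under Mock against 69.9 and 60.8 CPM under FeSO4. These 4 genes had log2 fold changes of 0.09 to 0.16.

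RNA polymerase I and its factors were the one role with a median below 0, at -0.05 over 6 genes, and 5 of the 6 had a fitted change below 0. That median was -0.11 with library size only and -0.12, -0.02, -0.09 and -0.01 without Mock replicate 1, Mock replicate 2, FeSO4 replicate 1 and FeSO4 replicate 2, and in the last of these fits 3 of the 6 genes were below 0. The small subunit group also had a median below 0 with upper quartile scaling (-0.01), with library size only (-0.06) and without FeSO4 replicate 1 (-0.12), and one of 0.15 without FeSO4 replicate 2. Polr1a, the largest catalytic subunit, was at 56.5 and 57.1 CPM under Mock against 52.5 and 49.6 CPM under FeSO4. Both FeSO4 libraries were below both Mock libraries, but the log2 fold change of -0.15 ± 0.08 (SE) had an adjusted p of 0.194 in edgeR and a 95% interval of -0.32 to 0.01. Polr1b, the second catalytic subunit, was at 32.5 and 33.9 CPM under Mock against 38.1 and 26.1 CPM under FeSO4. The gap between its FeSO4 libraries was 0.54 on the log2 scale, the widest of the 34 members, and its FeSO4 libraries lay above and below both Mock libraries. Polr1e, a dissociable subunit, was at 25.5 and 30.5 CPM under Mock against 26.5 and 27.8 CPM under FeSO4.

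Polr1c was the one gene of this group that rose. It encodes a subunit that RNA polymerase I shares with RNA polymerase III. It was at 37.1 and 35.6 CPM under Mock against 45.4 and 43.0 CPM under FeSO4, with no overlap. The log2 fold change was 0.28 ± 0.09 (SE), with a 95% interval of 0.10 to 0.46 and an adjusted p of 0.0315 in edgeR. This call was lost when any one of the 4 libraries was left out, with adjusted p-values of 0.0554 to 0.205 in edgeR, while the log2 fold change stayed between 0.24 and 0.32. Scaling by library size alone gave edgeR adjusted p-values of 0.0894 for Polr1c and 0.103 for Nhp2, and keeping all genes with at least 1 count gave 0.103 and 0.175.

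Ubtf, which encodes the ribosomal DNA binding factor UBF, was at 305 and 297 CPM under Mock against 307 and 289 CPM under FeSO4. The 95% interval of its log2 fold change, -0.14 to 0.12, was the narrowest among the genes not called in this group. Rrn3, which encodes the initiation factor TIF-IA, was at 52.9 and 57.2 CPM under Mock against 52.7 and 50.2 CPM under FeSO4. It was, with Polr1a, one of the 2 members with both FeSO4 libraries below both Mock libraries, and its log2 fold change was -0.10 ± 0.08 (SE).

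The nucleolar cofactors Ddx21, a helicase that acts on nascent precursor RNA, and Mybbp1a, a nucleolar MYB-binding protein, were among the more abundant members. Ddx21 was at 239 and 265 CPM under Mock against 280 and 262 CPM under FeSO4. Mybbp1a was at 242 and 249 CPM under Mock against 280 and 239 CPM under FeSO4. In both the FeSO4 values enclosed at least one Mock value, and neither passed the test, with log2 fold changes of 0.11 ± 0.07 and 0.08 ± 0.07 (SE).

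**Figure D2:**
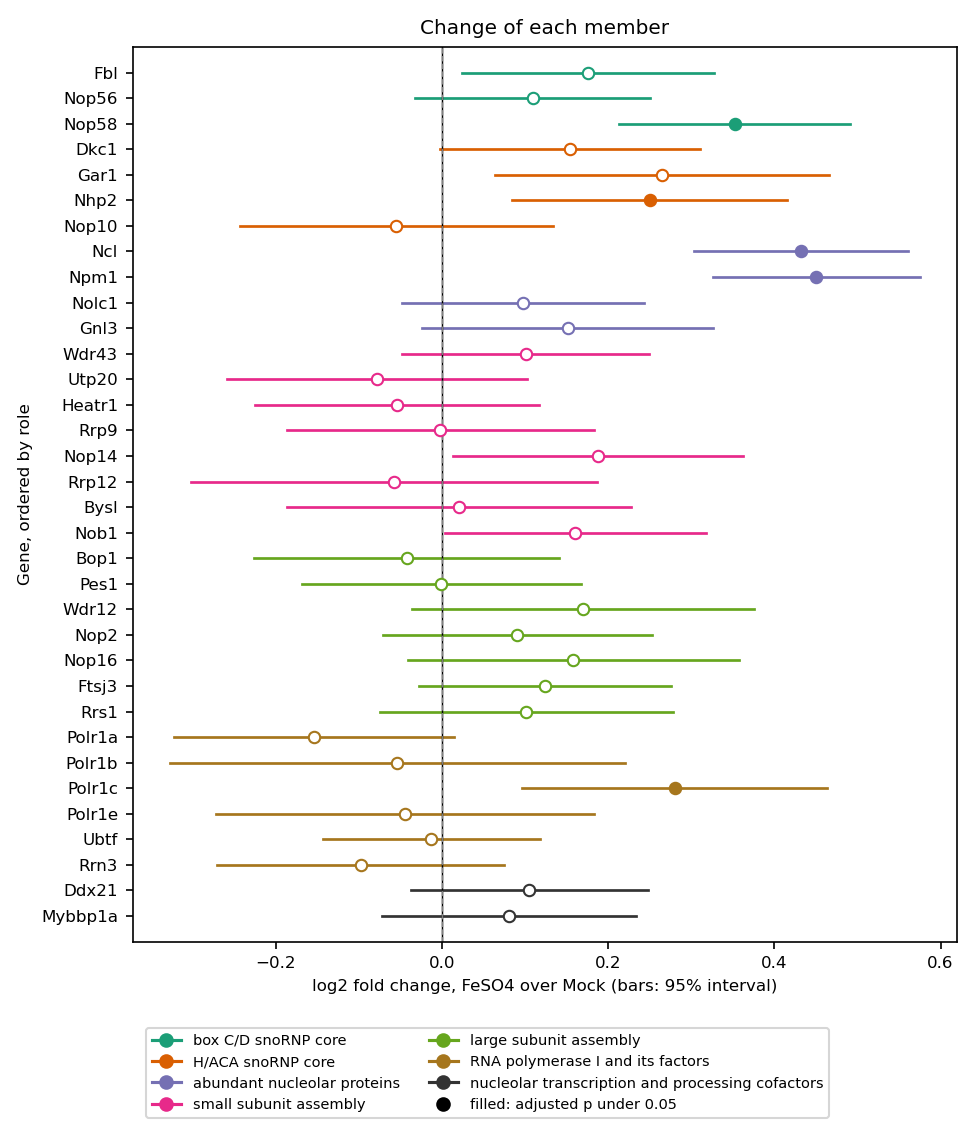
Log2 fold change of FeSO4 over Mock for each of the 34 genes (horizontal axis) with its 95% interval, coloured by role and filled where the adjusted p was under 0.05; the dashed line is the median of all genes tested. The 5 filled points lie between 0.25 and 0.45, and most polymerase I genes lie at or just below 0.

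The members differed between the FeSO4 libraries in one direction. FeSO4 replicate 1 was above FeSO4 replicate 2 for 33 of the 34 members, Polr1e being the exception, while 50.6% of all genes tested and 56.1% of the genes in the members' range of mean CPM had that order. It was shared by the rest of the pathway, where 122 of the 160 other genes tested, or 76.3%, showed it. FeSO4 replicate 1 was the highest of the 4 libraries for 29 members, against 27.0% of all genes. The share was 32.2% of the genes in the members' range of mean CPM and 50% of the other pathway genes tested. Mock replicate 1 was above Mock replicate 2 for 20 members, against 50.6% of all genes and 47.8% of the genes in that range. The gap between the FeSO4 libraries was wider than that between the Mock libraries for 28 of the 34, against 49.9% of all genes.

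Against the mean of the Mock libraries, 30 members were higher in FeSO4 replicate 1, where 49.4% of all genes were, and 19 in FeSO4 replicate 2, where 49.5% of all genes were. The median log2 ratios were 0.17 and 0.05. Ncl, Npm1 and Nop58 were higher in both libraries by similar amounts, whereas Rrp12, Polr1b, Bysl, Bop1 and others were higher in one FeSO4 library and lower in the other. Without FeSO4 replicate 1, edgeR called 3 members and 6.1% of all genes higher, and the members' median was 0.05. Without FeSO4 replicate 2 it called 6 members and 7.16% of all genes higher and the median was 0.17, and only Polr1a, Polr1e, Rrn3 and Utp20 then had fitted changes below 0. The members called in both of these fits were Ncl, Npm1 and Nop58.

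**Figure D3:**
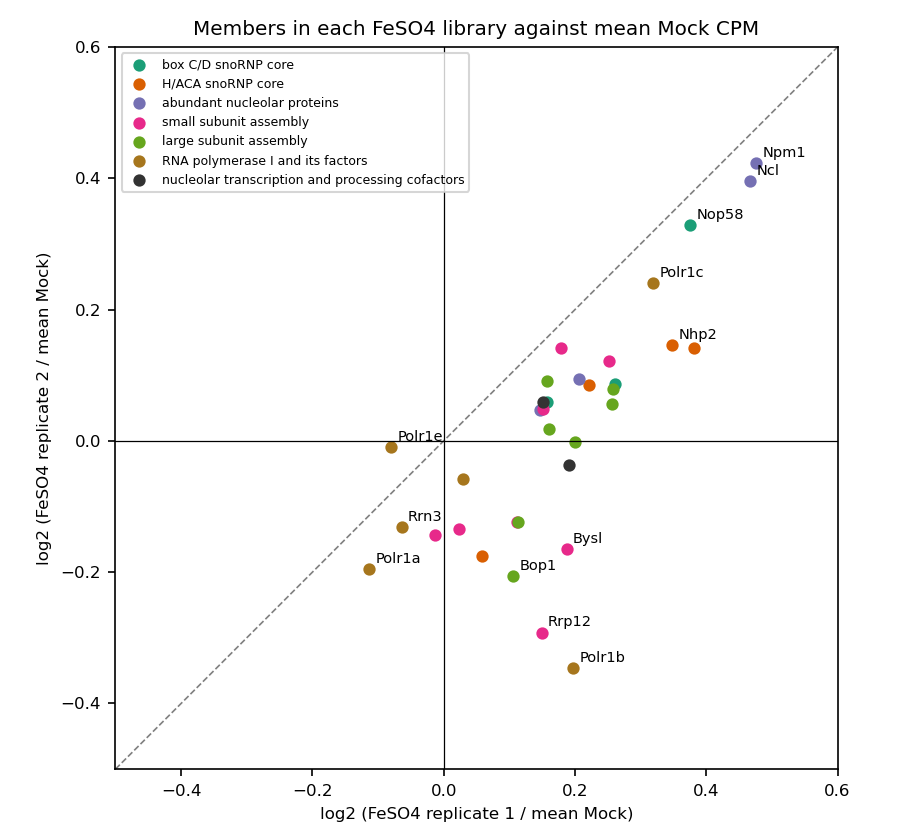
Log2 ratio of each member to the mean Mock CPM in FeSO4 replicate 1 (horizontal axis) and in FeSO4 replicate 2 (vertical axis), coloured by role, with the line of equal ratios dashed. All points but Polr1e lie below the dashed line, and Npm1, Ncl and Nop58 lie close to it at the upper right.

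Levels of different genes were compared per kilobase of the longest protein-coding transcript of GENCODE M1. On that scale Npm1 was the most abundant member, at 398 CPM per kb in Mock and 544 CPM per kb in FeSO4. Fbl followed at 132 and 149 CPM per kb, then Nhp2 at 96.3 and 115, Ncl at 91.8 and 124, and Nop56 at 88.0 and 94.9 CPM per kb. Utp20 was the lowest, at 5.33 CPM per kb in Mock and 5.05 CPM per kb in FeSO4, and Npm1 exceeded it 74.7-fold in Mock. The catalytic subunits Polr1a and Polr1b stood at 9.31 and 8.31 CPM per kb in Mock, while Polr1c stood at 27.7 CPM per kb and Ubtf at 64.2 CPM per kb. The value of Ncl depends on a model of 8257 bases, the second longest among the members.

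The order of the members per kilobase changed little between the groups. Npm1, Fbl, Nop56 and Nop10 kept ranks 1, 2, 5 and 10. Ncl and Nhp2 exchanged ranks 3 and 4, though their libraries overlapped in both groups. Nop58 went from rank 9 to rank 6, past Ubtf, Mybbp1a and Ddx21. Its FeSO4 libraries, at 64.8 and 62.7 CPM per kb, lay within those of Ubtf, at 65.5 and 61.7 CPM per kb. The last 5 ranks went to Polr1e, Polr1a, Rrp12, Polr1b and Utp20 in both groups. Polr1e and Polr1a, at 9.38 and 9.31 CPM per kb in Mock, did not differ beyond the spread of Polr1e, whose Mock libraries stood at 8.53 and 10.2 CPM per kb.

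Several members carry snoRNA genes in their introns, which are released when the host transcript is spliced. In GENCODE M1, 6 members hold 18 annotated snoRNA genes, with 4 each in Nop56 and Nop58, 3 each in Ncl, Gnl3 and Wdr43, and 1 in Dkc1. The snoRNA rows held at most 53 reads in any library and most were at 0 or a few reads. The filter on low counts kept 4 of the 18, in Gnl3 and Wdr43, and edgeR, DESeq2 and limma-voom called none of them, nor had any an unadjusted p under 0.05. With so few reads, and in libraries that the methods describe as mRNA libraries, these rows cannot show whether the snoRNAs themselves changed.

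Other genes of the pathway were taken from 7 lists, of which 161 of 172 genes were matched and 160 tested. Together 23 were called higher and 5 lower, where 10.9 and 9.17% of all genes were, and the median log2 fold change was 0.05. Scaling by library size alone gave 12 higher and 15 lower and turned that median to -0.01, while it moved the median of all genes to -0.07. With one library left out, 7 to 18 were called higher and 0 to 7 lower, and the median ran from 0.01 without FeSO4 replicate 1 to 0.10 without FeSO4 replicate 2. The count of lower calls was 0 without Mock replicate 2, without FeSO4 replicate 2 and with all genes of at least 1 count, so the 5 genes named as lower below were called in none of these fits.

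Of the other RNA polymerase I genes, 2 of 8 were called higher and none lower. Taf1d, a subunit of the selectivity factor SL1 that also hosts snoRNAs, was at 40.5 and 45.3 CPM under Mock against 56.0 and 57.7 CPM under FeSO4, a log2 fold change of 0.41 ± 0.09 (SE). With all genes of at least 1 count its edgeR adjusted p was 0.0566. Polr1d, which like Polr1c is shared between polymerases I and III, was at 108 and 107 CPM under Mock against 125 CPM in both FeSO4 libraries, a log2 fold change of 0.22 ± 0.07 (SE). The call of Polr1d was lost when any one library was left out, with adjusted p-values of 0.0591 to 0.134 in edgeR and log2 fold changes of 0.22, and also with library size only (0.109) and with all genes of at least 1 count (0.0861). Of 21 RNA polymerase III genes none was called higher in edgeR, DESeq2 or limma-voom, and at an unadjusted p under 0.05 there were 3 higher and 4 lower, beside 17.1 and 15.2% of all genes. Gtf3c1, a subunit of the polymerase III factor TFIIIC, was the 1 called lower, with a log2 fold change of -0.24 ± 0.06 (SE). The median of the polymerase III list was -0.09.

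Of 47 further small subunit genes tested, 5 were called higher and 3 lower. Utp11, Pno1 and Dcaf13 were higher, with log2 fold changes of 0.43 ± 0.08, 0.43 ± 0.10 and 0.33 ± 0.08 (SE). Pno1 is the partner of Nob1 in the late small subunit particle, and it was at 28.1 and 26.8 CPM under Mock against 38.9 and 35.0 CPM under FeSO4. Nol6, the helicase gene Dhx37 and the GTPase gene Bms1 were lower, with log2 fold changes of -0.27 ± 0.08, -0.28 ± 0.09 and -0.21 ± 0.07 (SE). Nol6 was at 95.9 and 98.0 CPM under Mock against 85.6 and 75.2 CPM under FeSO4. The list held changes in both directions and its median was 0.08. Utp11 was called in every alternative fit, whereas without FeSO4 replicate 1 the edgeR adjusted p was 0.0638 for Pno1 and 0.111 for Dcaf13, and with all genes of at least 1 count it was 0.0566 and 0.0705.

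Of 53 further large subunit genes tested, 8 were called higher and 1 lower, with a median of 0.02. Lyar, a nucleolar zinc finger protein, had the largest change of all the pathway genes and members, from 50.4 and 52.9 CPM under Mock to 75.2 and 75.0 CPM under FeSO4, a log2 fold change of 0.54 ± 0.08 (SE) with an adjusted p of 0.000106 in edgeR. Nsa2 and Ebna1bp2, both assembly factors of the large subunit, were also higher, with log2 fold changes of 0.34 ± 0.06 and 0.29 ± 0.07 (SE). Lyar and Nsa2 were called in every alternative fit, and Ebna1bp2 was not without FeSO4 replicate 1 or with all genes of at least 1 count, with edgeR adjusted p-values of 0.066 and 0.0535. Rrp1b was the 1 called lower, at 110 and 112 CPM under Mock against 98.2 and 85.0 CPM under FeSO4, a log2 fold change of -0.28 ± 0.08 (SE).

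The RNA exosome, which trims the 3′ ends of precursor RNAs, had the highest share called among the 7 lists of other pathway genes, 5 of 13 genes tested, all of them higher, and a median of 0.18. Exosc8 was at 107 and 100 CPM under Mock against 131 and 136 CPM under FeSO4, a log2 fold change of 0.36 ± 0.07 (SE). Exosc3 and Mphosph6 had log2 fold changes of 0.31 ± 0.08 and 0.31 ± 0.10 (SE). In all 3 genes both FeSO4 libraries lay above both Mock libraries, as for 30.1% of all genes. They were named for the smallest p among the called genes, which favours that ordering, so it adds no support. Of 12 snoRNP assembly factors 1 was called higher, Snu13, a protein of the box C/D particle, at 0.25 ± 0.08 (SE). Of 6 tested genes that host snoRNAs without coding for a protein, Zfas1 and Gas5 were called higher, at 0.45 ± 0.09 and 0.28 ± 0.07 (SE). Exosc8 and Zfas1 were called in every alternative fit. The edgeR adjusted p of Exosc3 was 0.158 without FeSO4 replicate 1 and that of Gas5 was 0.0696 without Mock replicate 2 and 0.0652 without FeSO4 replicate 2. All 3 of Exosc3, Gas5 and Mphosph6 missed the threshold with all genes of at least 1 count, at 0.0867, 0.0754 and 0.102. The call of Mphosph6 was also lost with any one library left out (0.0773 to 0.197), and that of Snu13 in 8 of the 13 alternative fits, among them DESeq2 and limma-voom. These lists were described by their counts, and no difference between them was tested.

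**Figure D4:**
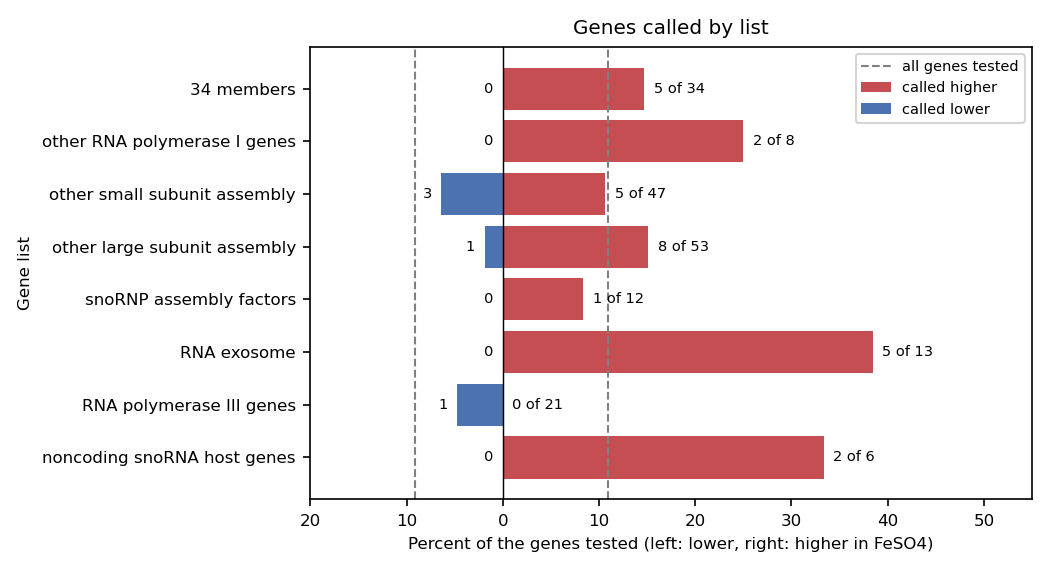
Share of the tested genes called higher (red, to the right) or lower (blue, to the left) in FeSO4 for the 34 members and for each list of other pathway genes, with the number called beside each bar and dashed lines at 10.9% and 9.17%, the shares over all genes. The exosome list reaches farthest to the right with 5 of 13 genes, and the members stand at 5 of 34.

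The promoter windows were searched for the E-box CACGTG, the palindromic site of MYC and related factors, in 250 bases before and 50 bases after each RefSeq start, and a gene counted if any of its windows held the motif. It was present for 6 of the 29 members with an entry, or 20.7% (95% Wilson interval 9.85 to 38.4), and for 8.09% of all 27025 genes in the table. Of 137 other pathway genes with an entry, 18.2% held it. In the 250 bases before the start alone, 6.90% of the members and 6.86% of all genes held it, so the higher share came from matches just after the start. The windows of the members were richer in G and C than those of all genes, with medians of 58.3% and 53.3%, and the part of base composition was not tested. All genes of the table were taken without regard to their expression in these libraries, and the part of expression was not tested either.

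The E-box matches are printed with their surroundings, 30 bases each, to show where the motif sits. Capitals mark the motif, runs read 5′ to 3′ on the gene's strand, and all positions are on GRCm38.p6. The matches began 60 bases before the start in Nop2 (chr6:125131811-125131840, plus strand), 215 and 48 bases before it in Rrn3 (chr16:13780472-13780501 and chr16:13780639-13780668, plus strand), and at base 3 of the transcript in Pes1 (chr11:3963965-3963994, plus strand). They began at base 18 in Wdr43 (chr17:71616220-71616249, plus strand), base 38 in Utp20 (chr10:88826765-88826794, minus strand) and base 41 in Mybbp1a (chr11:72441347-72441376, plus strand).
Nop2: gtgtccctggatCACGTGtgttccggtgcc
Rrn3, distal: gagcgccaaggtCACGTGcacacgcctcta
Rrn3, proximal: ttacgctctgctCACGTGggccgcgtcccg
Pes1: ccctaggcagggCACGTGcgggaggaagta
Wdr43: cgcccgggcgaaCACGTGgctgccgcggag
Utp20: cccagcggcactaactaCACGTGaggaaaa
Mybbp1a: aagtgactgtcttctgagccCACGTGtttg

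None of these 6 genes was among the members that were called higher, and their log2 fold changes ran from -0.10 for Rrn3 to 0.10 for Wdr43. The other motif, the ETS core CGGAAGT on either strand, was added after the sequences had been seen. It was present for 8 of the 29 members, or 27.6% (95% Wilson interval 14.7 to 45.7), for 38.0% of the other pathway genes and for 7.20% of all genes. In the 250 bases before the start alone, 17.2% of the members, 23.4% of the other pathway genes and 5.58% of all genes held it. As for the E-box, all genes were taken whether or not they were expressed here. The part of expression or base composition in these shares was not tested. The 8 members with the core in the full window were Nhp2, Gar1, Nop10, Heatr1, Polr1c, Polr1e, Rrn3 and Ddx21. They held 2 of the called genes, Nhp2 and Polr1c, and also 4 with fitted changes below 0, Nop10, Heatr1, Polr1e and Rrn3. Rrn3 held both motifs. The CCAAT box, searched on either strand for comparison, was present for 27.6% of the members and 41.1% of all genes. A match describes these letters alone and says nothing of a factor's binding in iTreg cells.

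**Figure D5:**
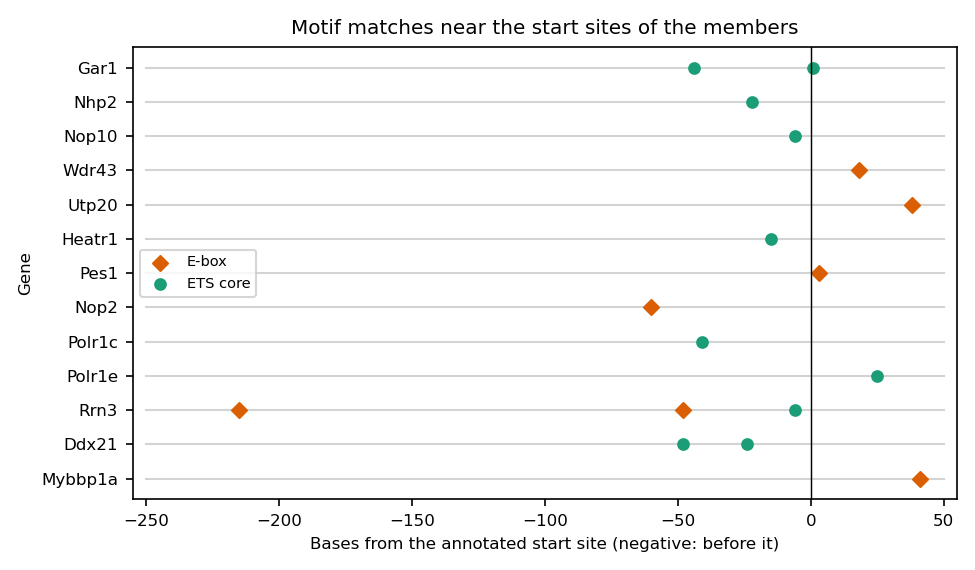
Position of each E-box (diamonds) and ETS core (circles) match from the annotated start site (horizontal axis in bases, negative before the start) in the members that hold either motif, ordered by role. In 7 of the 8 genes with an ETS core, Polr1e excepted, a core begins within 50 bases before the start, Gar1 having another one at base 1 of the transcript, and 4 of the 6 genes with an E-box have it just after the start.

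Some values carry limits of the counting. Npm1 is known to have many processed copies in the genome, and reads that fit several places were not assigned to genes. In GENCODE M1, exons of 12 members overlap a gene on the opposite strand, by 353 bases for Bysl with Ccnd3 and 185 bases for Polr1a with Gm16601. Whether the counting used strand is not given in the sources used here, so reads from Bysl and Ccnd3 in that stretch may not be told apart. Among the called members, Nhp2 overlaps Rmnd5b by 44 bases, and Ncl, Npm1, Nop58 and Polr1c overlap no exon of another gene.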

How the data were processed

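The authors deposited one table of raw read counts per Ensembl gene for 2 Mock and 2 FeSO4 libraries, unnormalised whole counts from total RNA, and no other sample's column was present. The submitters' processing notes name mm10, Trim Galore 0.6.7, STAR 2.7.9a and featureCounts, while the study's methods name mm9, and closing rows of the table carry names of another counter; those rows, which name no gene and held 15.9 to 17.3% of all reads, were left out, among them 4.27 to 4.62% as not uniquely aligned. Because of the 2 builds, gene models served only for lengths, overlaps and hosted snoRNAs.

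Symbols came from a table of mouse gene names. Genes were kept by filterByExpr, scaled by TMM and tested with edgeR 4.0.16 in R 4.3.3 (quasi-likelihood, Benjamini-Hochberg over all genes). CPM are TMM-scaled, and errors are SD over 2 libraries or SE of the fit. All 34 members, and from each pathway list up to 3 called genes a direction by smallest p, were named. Alternatives were DESeq2 1.42.0, limma-voom (limma 3.58.1), other scalings, filters and thresholds, a replicate block, each library left out, and edgeR's legacy test, added after seeing the data. The study's methods, which describe mRNA libraries made with a NEBNext low-input kit, give the libraries as Mock and FeSO4 pairs from independent experiments. The labels do not say that a replicate number marks an experiment, so the block by number was run as an alternative and its value is given where it changed a member's call. With 2 per group the p-values rest on the spread between these libraries, which edgeR estimated in part across genes and not from each gene alone. The members and lists were chosen with earlier results of these data known. Depth of 35183187 to 40859178 reads puts 3 reads at 0.0734 to 0.0853 CPM before TMM scaling. Intervals cover counting error or fit error only.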

Additional observations from a re-analysis of the deposited data

Results flagged for a closer look

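Multiply aligned reads, a class that the gene counts leave out, were at 4.60 and 4.62% with FeSO4 against 4.42 and 4.27% with PBS, so that the means lay 0.264 percentage points apart. Poorly aligned reads were at 0.978 and 0.988% with FeSO4 against 0.802 and 0.929% with PBS, with means 0.118 percentage points apart. Both stood out because they are signals outside the gene counts that lay above the level of the control libraries, and neither was tested. Reads outside annotated genes went the other way, at 4.36 and 5.21% with FeSO4 against 5.31 and 6.03% with PBS, a difference of -0.887 percentage points.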

How the results depend on the processing

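Ncl, Npm1 and Nop58 were called higher under all 13 alternative fits, and no member was called lower in any of them. The 5 members called became 3 with library size only, with all genes of at least 1 count, and at an adjusted p under 0.01, and 0 at the threshold that adds a log2 change of 0.5; with one library left out they were 3 to 6. With the replicate block they were 7, Fbl and Gar1 being added, while all genes called went to 1847 higher and 1580 lower and other pathway genes to 29 higher. The threshold that adds a log2 change of 0.5 uses an unadjusted p under 0.05 in place of the adjusted p, here and below. Deviations of same-numbered libraries correlated at 0.03 over all genes and at 0.22 over 8522 genes of at least 10 CPM, a level that all 34 members exceeded. The first fit used no pairs because the study states no covariate for its test. The labels also do not tie the numbers to the paired experiments of the methods. The members' median was 0.051 to 0.173 with one library left out and 0.036 with library size only. Other pathway genes called higher, 23, became 12 with library size only, 5 with all genes of at least 1 count, 10 at an adjusted p under 0.01, 1 at the added log2 threshold, and 7 to 18 with one library left out; those called lower, 5, became 8 with the upper quartile, 15 with library size only, 8 with the replicate block, and 0 with all genes of at least 1 count or at either threshold, and 0 to 7 with one library left out. Library size only turned the median of the other pathway genes to -0.011, and with one library left out it was 0.010 to 0.101. All genes called higher, 1491, became 980 with library size only, against 1810 lower, 524 with all genes of at least 1 count, 789 at an adjusted p under 0.01, 641 at the added threshold; those lower, 1259, became 304, 597 and 787. With one library left out they were 893 to 1199 higher and 710 to 1158 lower. The E-box share was 6.90% before the start alone. Changes of sign concerned members called in no fit: Rrp9 at 0.00055 and Pes1 at 0.0020 with all genes of at least 1 count, and Bysl at -0.045 with library size only. With one library left out the log2 fold change ranged from -0.171 to 0.062 for Nop10, -0.130 to 0.026 for Heatr1, -0.120 to 0.116 for Rrp9, -0.288 to 0.153 for Rrp12, -0.160 to 0.191 for Bysl, -0.202 to 0.109 for Bop1, -0.119 to 0.116 for Pes1, -0.343 to 0.200 for Polr1b, -0.175 to 0.097 for Polr1e, -0.053 to 0.033 for Ubtf and -0.033 to 0.194 for Mybbp1a. The cause of these shifts was not tested.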
